A study of Mus musculus with 18 samples.

Results

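The testis-specific serine kinases (Tssk1 to Tssk6) and Tsks, the gene of a protein that TSSK1 and TSSK2 bind and phosphorylate, were followed in round spermatids (RS), the haploid germ cells that have left meiosis and have not yet elongated. The members were taken by gene symbol and made up 7 of the 54232 genes in the count table, and all 7 passed the filter on low counts. RNA was extracted from RS of 75 to 85 day old mice of 3 genotypes, WT, GRTH-KO and GRTH-KI, with 6 libraries each, and the study asked what the RNA helicase GRTH (Ddx25) does during spermiogenesis. KO mice carry no GRTH protein, and KI mice carry a human GRTH gene with a missense mutation, so that the phosphorylated form of the protein is missing. Both lines are whole-animal models in which spermatids stop before elongation, and the labels do not say whether each library came from a separate mouse, so the p-values measure the spread between libraries, which may be partly technical. Counts on genes summed to 20606738 to 26776555 per library in WT, 18766971 to 25654453 in KO and 19996042 to 24915182 in KI.

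TSSK proteins are small serine/threonine kinases of the family that also holds AMP-activated kinase, and they are made almost only in germ cells after meiosis. TSSK1 and TSSK2 are encoded by neighbouring genes without introns, associate with TSKS at the chromatoid body and the centrioles of spermatids, and are together needed for male fertility in the mouse. TSSK6 is needed for the exchange of histones for protamines in the condensing nucleus, and TSSK4 acts on the sperm flagellum.

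Tssk1 (ENSMUSG00000041566) and Tssk2 (ENSMUSG00000045521) lie head to tail on chromosome 16 of GRCm38, at 17894223 to 17897922 and 17898637 to 17900024 on the plus strand, 714 bases apart. Each is 1 exon, of 3700 and 1388 bases in the table, and Tssk1 lies within the span of Dgcr2, which is transcribed from the other strand. Their coding sequences, of 1098 and 1077 bases in GENCODE M21, were identical at 859 of 1048 aligned bases (82.0%) and had 193 stretches of 25 bases in common. No other pair of members had such a stretch in common. The other pairs of kinases were identical at 61.4% to 66.9% of aligned bases, no more than the kinases were to Tsks, which is not a kinase gene (63.7% to 71.2%). A search for 50 bases or more at 95% identity or above in a transcript of another gene returned 0 for every member. That count does not take in the overlap of Tssk6 with genes on the other strand, given next. Tssk6 (ENSMUSG00000047654, chromosome 8, 69902184 to 69903518, plus strand) also has 1 exon, and its span overlaps Yjefn3 over 529 bases and Ndufa13 over 375 bases on the other strand. Tssk3 (ENSMUSG00000000411, chromosome 4, 129489014 to 129491022, minus strand) has 2 exons, Tssk4 (ENSMUSG00000007591, chromosome 14, 55650184 to 55652539, plus strand) 3, Tssk5 (ENSMUSG00000060794, chromosome 15, 76371952 to 76374938, minus strand) 6 and Tsks (ENSMUSG00000059891, chromosome 7, 44943204 to 44958035, plus strand) 11.

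Because Tssk1 and Tssk2 sit side by side and changed by different amounts, the bases just before their starts are shown. Both were read from RefSeq (GRCm38.p6, plus strand) and run from the nearest upstream exon of the table's annotation to the base before the RefSeq start, chr16:17894146-17894202 for Tssk1 and chr16:17898563-17898636 for Tssk2. Capitals mark the bases that were identical in an alignment of both stretches, 42 of 54 aligned bases (77.8%).
Tssk1: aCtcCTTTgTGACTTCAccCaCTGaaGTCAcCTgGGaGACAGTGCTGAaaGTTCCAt
Tssk2: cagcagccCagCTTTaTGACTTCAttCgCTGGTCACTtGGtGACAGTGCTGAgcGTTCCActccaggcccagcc
RefSeq promoter entries were found for 6 of the 7 members, all but Tssk5. In the 250 bases before the start, read on both strands, the full cAMP response element TGACGTCA was in the window of 0 of these 6 and in 1.55% of 32851 windows of all genes. Its core TGACG was found once, in Tssk6, with its first base 73 bases before the start, against 17.8% of all windows with at least 1 match, and TATAAA was in none of the 6, against 12.4% of all windows. The full element contains the core, so these matches are not independent.

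In the targeted gene, Ddx25, the normalized level (CPM, the counts of a gene scaled to the TMM-adjusted size of the library) was between 538 and 607 in WT and between 47.7 and 90.9 in KO. In KI it was at or below 0.519 CPM in 5 libraries. The KI mice carry a human GRTH gene, while reads were counted on the mouse gene. Low counts in KI therefore need not mean that the transcript was absent, which was not tested. The study states that the non-phosphorylated protein is unaffected in KI. The library labelled KI 4 had 56.9 CPM, within the range of KO. The profile of that library was also closest to that of KO 2, with a median squared difference of counts across genes 1.592 times that of counting noise, against 2.116 to 3.001 for the next 6 pairs, which all joined libraries of the same genotype. The labels do not settle whether KI 4 is a KI or a KO library. It is named by its label and kept in KI, so KI values include it unless stated. The counts of members called are given with and without KO 2 and KI 4.

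Per kb of exon, Tssk6 had the highest mean level in WT, 192 ± 35.7 CPM per kb (SD, n = 6), followed by Tssk2 with 176 ± 32.6, Tsks with 161 ± 27.2 and Tssk3 with 126 ± 14.7. Neighbours in this part of the order overlapped between libraries, and Tssk6 was above Tssk2 in 4 of 6 WT libraries. Tssk1 (65.1 ± 11.3 CPM per kb) and Tssk4 (59.5 ± 10.7 CPM per kb) lay below every one of these and overlapped each other, and Tssk5 was far below with 6.95 ± 2.03 CPM per kb. The place of Tssk1 depended on its length. RefSeq ends the gene after 1451 bases, and with that length, an alternative chosen after seeing the data, its level in WT was 166 ± 28.8 CPM per kb if all its counts are placed there.

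In KO and KI the order was different. With the exon lengths of the table, Tssk2 came first, with 78.5 ± 31.1 CPM per kb in KO and 64.8 ± 10.7 in KI, then Tsks, Tssk1, Tssk4 and Tssk3, and Tssk6 was the last but Tssk5, with 25.4 ± 6.30 CPM per kb in KO and 21.99 ± 4.86 in KI. Tssk2 was above Tsks, and Tssk4 above Tssk3, in 6 of 6 libraries of both genotypes. The summed level of the 6 kinase genes was 624.9 ± 73.4 CPM per kb in WT, 240 ± 66.4 in KO and 209 ± 31.9 in KI. Tssk6 made up 30.7% of that sum in WT, 11.2% in KO and 10.6% in KI, while the share of Tssk4 was 9.48%, 18.4% and 19.2%, and that of Tssk1 lay between 9.19% and 11.8% in WT libraries and between 16.6% and 22.7% in KO and KI libraries. The share of Tssk2 stayed between 28.1% and 31.7% in the means of the 3 genotypes. These places and shares, too, depended on the length of Tssk1. With the RefSeq length its mean was the third of the 7 in WT and the highest in KO (124 ± 39.99 CPM per kb) and KI (114 ± 19.8). The shares of the sum in WT, KO and KI were then 22.8%, 38.9% and 40.8% for Tssk1, 24.2%, 24.1% and 23.3% for Tssk2, 8.17%, 14.1% and 14.4% for Tssk4 and 26.5%, 8.57% and 7.95% for Tssk6.

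**Figure D1:**
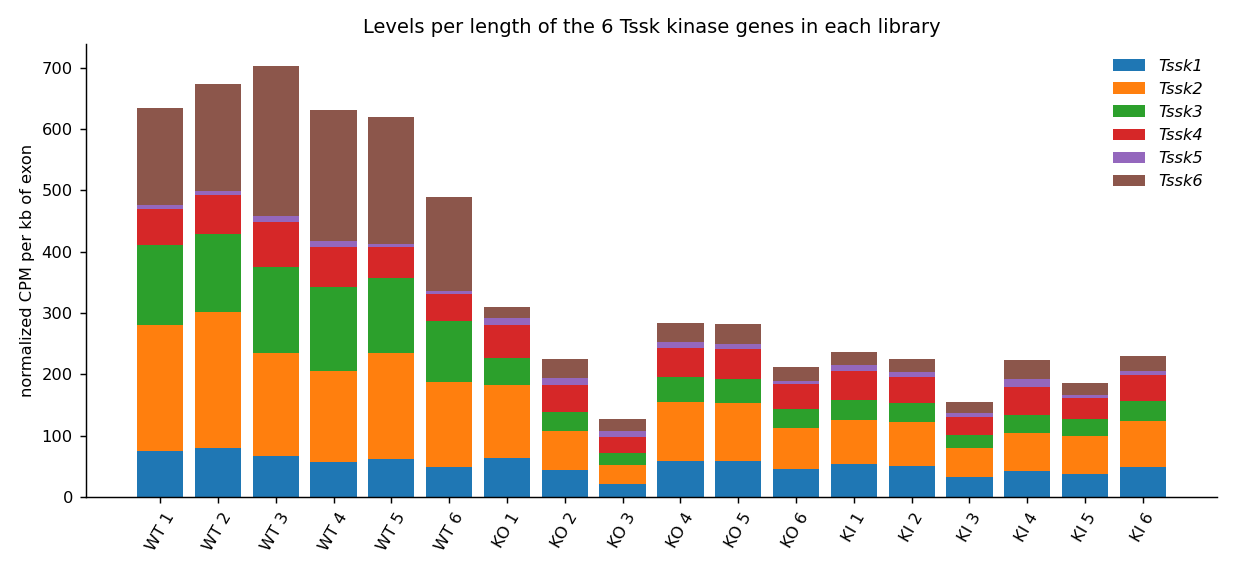
Normalized CPM per kb of exon (y axis) of the 6 Tssk kinase genes, with the exon lengths of the table, stacked for each of the 18 libraries (x axis). WT libraries reach 489.5 to 703.1 CPM per kb in sum, above every KO library (127.8 to 309.6) and every KI library (154.9 to 236.0), and the band of Tssk6 is narrower in KO and KI.

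Tssk3 and Tssk6 fell by more than 1 log2 unit in both genotypes, and no other member passed that threshold. These were 2 of 7 members, against 1.13% of the 21058 genes tested that were lower by more than 1 log2 unit in KO and 1.43% in KI (edgeR quasi-likelihood test against 1 log2 unit, Benjamini-Hochberg adjusted p under 0.1). For a change of any amount, 5 of 7 members were lower in KO, against 13.5% of all genes, and 6 of 7 in KI, against 15.4%. With counts summed over the 6 closest pairs of libraries of the same genotype, 4 of 7 were lower in each, without Tssk4 in KO and without Tssk1 and Tssk4 in KI. The median log2 fold change over the 7 members was -1.16 in KO and -1.44 in KI, while that over all genes was 0.0258 and 0.0539. KO and KI were compared with the same 6 WT libraries, so the results in the 2 genotypes are not independent. In these whole RNA samples, fewer cells of a stage and less RNA per cell cannot be told apart. Without KO 2 and KI 4 the counts of members called were the same in both genotypes.

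Tssk6 had the largest fall of the 7. In WT its level lay between 205 and 326 CPM (median 255), in KO between 23.2 and 41.5 (median 35.7) and in KI between 22.96 and 41.1 (median 27.7). Every KO and KI library was below every WT library, and the lowest WT library was 4.93 times the highest KO library. The level in KO was 13.3% of WT, with a log2 fold change of -2.92 ± 0.18 (SE) and an adjusted p of 2.27e-07 in the edgeR test past 1 log2 unit. In KI it was 11.5% of WT, with -3.12 ± 0.19 and an adjusted p of 5.38e-08 in the same edgeR test. The highest KI value was that of the library labelled KI 4, and without it the log2 fold change in KI was -3.24.

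Tssk3, a kinase that is itself activated by phosphorylation through PDPK1, came next. Its level was 127 to 181 CPM in WT (median 165), 24.2 to 55.4 in KO (median 45.2) and 27.9 to 41.9 in KI (median 38.7), and neither genotype overlapped WT. The log2 fold change was -1.88 ± 0.16 in KO (edgeR adjusted p past 1 log2 unit 0.00114) and -2.12 ± 0.16 in KI (edgeR adjusted p 5.82e-05). Tssk3 was thus at 27.2% of its WT level in KO and at 23.1% in KI.

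Tsks and Tssk2 fell by an intermediate amount. Tsks had 241 to 377 CPM in WT (median 304), 51.6 to 218 in KO (median 120) and 82.0 to 111 in KI (median 100.2). Its KO libraries were spread widely, with KO 1 close under the lowest WT library and KO 3 the lowest of all. The log2 fold change was -1.35 ± 0.23 in KO (edgeR adjusted p for any change 0.000149) and -1.68 ± 0.23 in KI (edgeR adjusted p 1.14e-05). Tssk2 had 192 to 309 CPM in WT (median 236), 43.4 to 166 in KO (median 112) and 64.8 to 105 in KI (median 92.1). Its log2 fold change was -1.16 ± 0.22 in KO (edgeR adjusted p 0.000531) and -1.44 ± 0.22 in KI (edgeR adjusted p 5.04e-05). Together with Tssk3 and Tssk6 these were the 4 members whose libraries in both KO and KI were all below WT, which held for 6.44% of all genes in KO and 7.91% in KI. Neither passed the test past 1 log2 unit, with edgeR adjusted p of 0.151 for Tsks and 0.863 for Tssk2 in KI.

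Tssk4 and Tssk1 had the log2 fold changes nearest to 0 among the members below WT in the mean. Tssk4, whose product phosphorylates the outer dense fibre protein ODF2, had 76.4 to 127 CPM in WT (median 104.5), 45.3 to 91.3 in KO (median 79.0) and 50.4 to 81.1 in KI (median 73.3). The genotypes overlapped, and 2 of 6 KO and 4 of 6 KI libraries were below every WT library. It fell by 0.45 ± 0.16 on the log2 scale in KO (edgeR adjusted p 0.047) and by 0.56 ± 0.16 in KI (edgeR adjusted p 0.0135). Tssk1 had 180 to 294 CPM in WT (median 241), 78.5 to 236 in KO (median 193) and 123 to 198 in KI (median 170), and 3 of 6 libraries of either genotype were below every WT library. Its log2 fold change was -0.42 ± 0.20 in KO, which did not pass the test (edgeR adjusted p 0.144), and -0.55 ± 0.20 in KI, which did (edgeR adjusted p 0.0497). With the counts of close library pairs summed, the edgeR adjusted p was 0.141 in KO and 0.154 in KI for Tssk4 and 0.275 for Tssk1 in KI, with log2 fold changes of -0.49, -0.51 and -0.52, and without WT 2 or KI 3 that of Tssk1 in KI was 0.112 or 0.107. Tssk1 passed in KO without WT 6 (edgeR adjusted p 0.0734) or KO 1 (0.08).

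Tssk5 was the only member whose mean was higher in KO and KI than in WT. Its level was 10.04 to 20.5 CPM in WT (median 13.5), 12.6 to 25.7 in KO (median 20.3) and 12.5 to 26.5 in KI (median 16.3), from 212 to 626 counts per library. The genotypes overlapped, with 3 of 6 KO libraries and 1 of 6 KI libraries, the one labelled KI 4, above every WT library. The log2 fold change was 0.47 ± 0.20 in KO and 0.27 ± 0.20 in KI, and the edgeR adjusted p values of 0.102 and 0.384 did not pass. No member was thus called higher in either genotype, against 16.4% of all genes in KO and 16.1% in KI. At an unadjusted p under 0.05 edgeR had 1 member higher in KO, Tssk5, and 0 in KI, and DESeq2 called 0 in either. Tssk5 in KO passed without WT 3 (edgeR adjusted p 0.0308), WT 4 (0.0728), KO 6 (0.0468), KI 3 (0.0982), KI 4 (0.0718) or KI 5 (0.0936), and in KI without WT 3 (0.0979), with a log2 fold change of 0.11 in KI without KI 4.

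**Figure D2:**
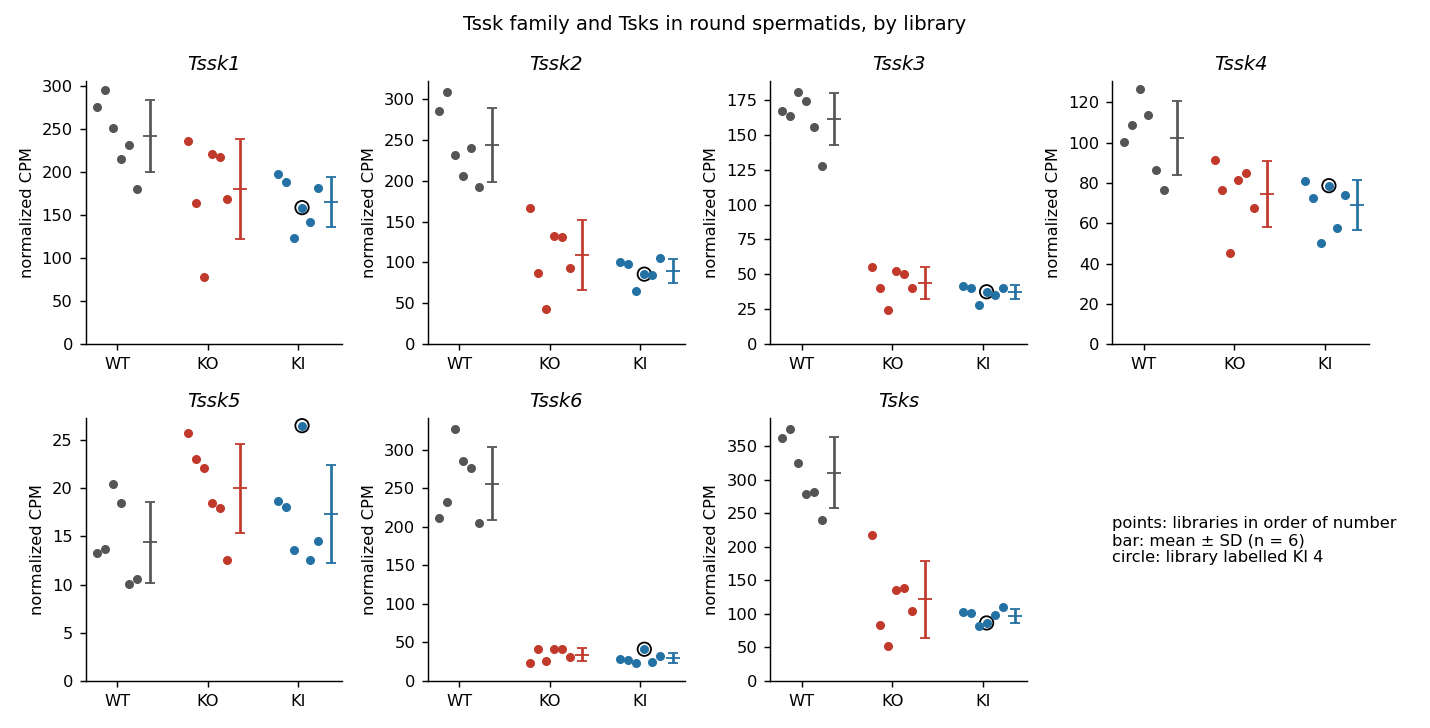
Normalized CPM (y axis, from 0) of each member in every WT, KO and KI library, as points in order of library number, with the mean and SD of 6 libraries beside them and a circle around the library labelled KI 4. Tssk2, Tssk3, Tssk6 and Tsks have all KO and KI libraries below WT, while Tssk1, Tssk4 and Tssk5 overlap.

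**Figure D3:**
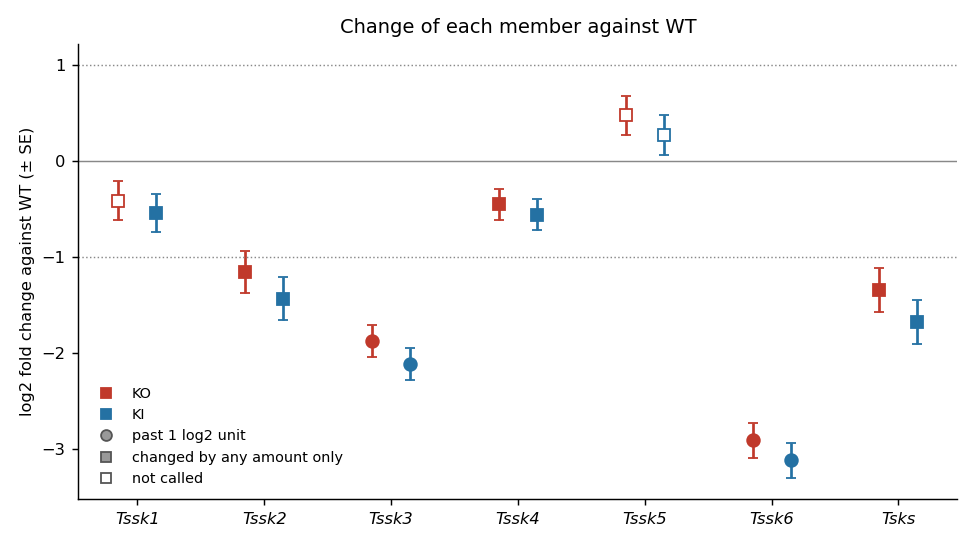
Log2 fold change against WT (y axis) of each member in KO (red) and KI (blue), with the SE. Round filled points passed the test past 1 log2 unit, square filled points only that for any amount, and open points neither; dotted lines mark 1 log2 unit in each direction, and the values run from -3.12 for Tssk6 in KI to 0.47 for Tssk5 in KO.

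Among the KO libraries the members did not all move together. KO 3 was the lowest KO library for Tssk1, Tssk2, Tssk3, Tssk4 and Tsks, with 78.5 CPM of Tssk1 against 164 to 236 in the other KO libraries, while its Tssk5 (22.1 CPM) was above the KO median and its Tssk6 (25.8 CPM) was the second lowest. KO 1 had the highest level of Tssk1, Tssk2, Tssk3, Tssk4, Tssk5 and Tsks among KO libraries and the lowest of Tssk6. KO 3 also had the lowest sums of round spermatid markers (994.7 CPM) and of elongating spermatid markers (1840 CPM) of all libraries, and KO 1 the highest sum of round spermatid markers (1921 CPM). Without KO 3 the log2 fold change in KO was -2.85 for Tssk6, -1.76 for Tssk3, -1.19 for Tsks and -0.26 for Tssk1, and edgeR's calls of the 7 members in KO were the same.

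KI and KO did not differ detectably in any member. The log2 fold change of KI against KO lay between -0.11 (SE 0.16, Tssk4) and -0.33 (SE 0.23, Tsks), and 0 of 7 were called by edgeR for a change of any amount, where 0.0237% of all genes were lower and 0.076% higher. The same count of 0 was found at an unadjusted p under 0.05 and by DESeq2. With SEs of 0.16 to 0.23, differences of the size measured were not detectable with these libraries.

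To ask whether members changed by different amounts, the ratio of each pair was taken within each library, where it does not depend on how libraries were scaled. Of 21 pairs, 20 had a different ratio in KO than in WT and 20 in KI (exact permutation test, two-sided, adjusted over the 42 ratios, largest adjusted p among those called 0.0273 in KO and 0.0123 in KI). No such count was made for pairs of other genes, so it is not known whether this is particular to the members. Each member is in several of the ratios, so the ratios are not independent, and 1 strongly changed member alters every pair it is in. The smallest p that 6 against 6 libraries allow is 0.00216. The exception in both genotypes was Tssk1 with Tssk4. The counts of Tssk4 were 0.365 to 0.531 of those of Tssk1 in WT (median 0.4), 0.369 to 0.577 in KO (median 0.397) and 0.387 to 0.497 in KI (median 0.409), and the log2 ratio of Tssk1 to Tssk4 differed from WT by -0.015 in KO (exact permutation p = 0.92) and by 0.017 in KI (exact permutation p = 0.905).

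The neighbours Tssk1 and Tssk2 parted. Tssk2 had 0.92 to 1.07 times the counts of Tssk1 in WT, 0.535 to 0.705 in KO and 0.509 to 0.596 in KI, without overlap, and the log2 ratio of Tssk1 to Tssk2 rose by 0.78 in KO and 0.89 in KI (exact permutation p = 0.00216 each, adjusted 0.00284). The study names no counting setting for reads that fit both genes equally, and the part of their shared stretches in this ratio was not tested. Tssk1 was also counted over 3700 bases, where RefSeq ends the gene after 1451. The part of reads from beyond that end in the ratio was not tested. Tssk2 and Tsks stayed closer to each other. The ratio of Tsks to Tssk2 was 1.17 to 1.41 in WT, 0.946 to 1.31 in KO and 1.01 to 1.27 in KI, with overlapping genotypes, and the log2 ratio of Tssk2 to Tsks rose by 0.22 in KO (exact permutation p = 0.026, adjusted 0.0273) and 0.23 in KI (exact permutation p = 0.0108, adjusted 0.0123). With the counts of close library pairs summed, the adjusted p of this ratio in KO was 0.15, that of Tssk3 to Tsks 0.135 and that of Tssk1 to Tssk5 0.118, and 17 of 21 pairs were called in KO.

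Tssk6 and Tssk3 also fell by different amounts. Tssk6 had 1.27 to 1.81 times the counts of Tssk3 in WT, 0.419 to 1.07 in KO and 0.673 to 1.10 in KI, and the log2 ratio of Tssk3 to Tssk6 rose by 1.01 in both (exact permutation p = 0.00216, adjusted 0.00284). The widest parting was that of Tssk5 from Tssk6, whose log2 ratio rose by 3.42 in KO and 3.39 in KI (exact permutation p = 0.00216, adjusted 0.00284).

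**Figure D4:**
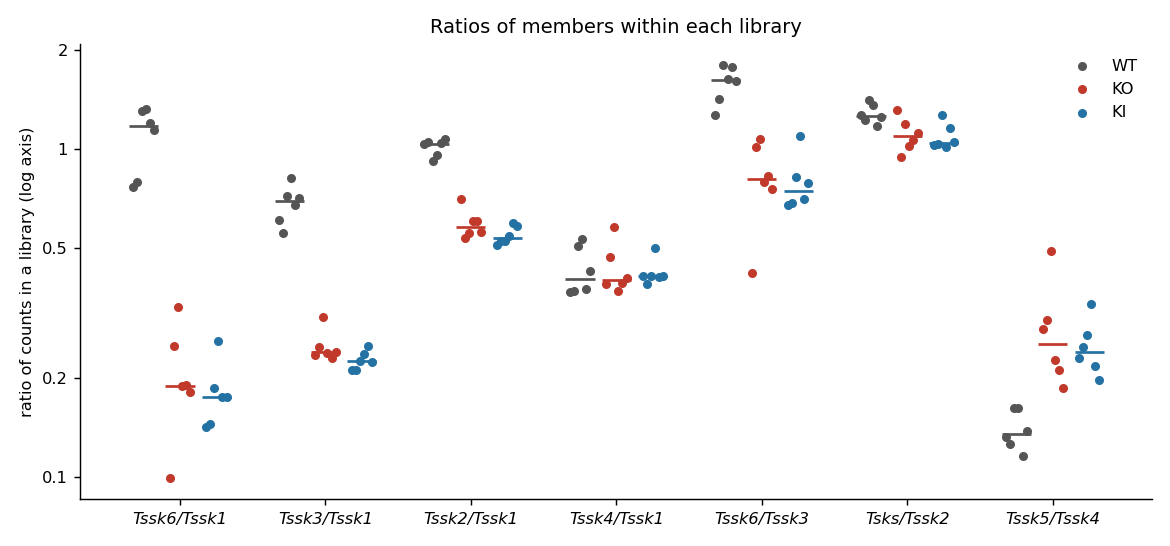
Ratio of the counts of members within each library (y axis, log scale) for 7 pairs in WT, KO and KI, with 6 libraries each as points and the median as a line. Tssk6/Tssk1 falls from a median of 1.17 in WT to 0.1895 in KO and 0.175 in KI, while Tssk4/Tssk1 overlaps between all genotypes.

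The number of exons did not separate the members that fell most from the others, since Tssk6 has 1 exon and Tssk3 2, and Tssk1 and Tssk2 also have 1. The coding sequences of Tssk3 (807 bases) and Tssk6 (822 bases) are the shortest of the 7, those of the others running from 1017 bases in Tssk4 to 1758 in Tsks. With 7 genes this is a description and was not tested.

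Genes beside the members differed from locus to locus. Dgcr2, on the other strand around Tssk1 and 74 bases from the start of Tssk2, had 24.2 ± 2.90 CPM in WT, against 27.3 ± 4.62 in KO and 24.7 ± 3.47 for KI (edgeR adjusted p 0.36 and 0.89), and Ess2, on the far side of Tssk2, had adjusted p of 0.92 and 0.655 in edgeR. Around Tssk6, Yjefn3 fell by 2.79 ± 0.30 on the log2 scale in KO and by 1.92 ± 0.28 in KI (edgeR adjusted p 5.2e-07 and 2.59e-05), from 4.11 ± 1.90 CPM in WT to 0.583 ± 0.191 and 1.08 ± 0.346. Ndufa13, a subunit of mitochondrial complex I, fell by 0.59 ± 0.12 in KO and 0.79 ± 0.13 in KI (edgeR adjusted p 0.00122 and 5.85e-05). Both overlap Tssk6 on the other strand and were counted by strand, and the part of reads from Tssk6 in their counts was not tested. Of the nearest genes that do not overlap it, Cilp2, with 3 to 24 counts per library, rose by 0.81 ± 0.33 in KI (edgeR adjusted p 0.0734) and was not called in KO (edgeR adjusted p 0.537), and Gatad2a was not called in either (0.47 in KO and 0.486 in KI). Near Tssk3, Bsdc1 fell by 0.45 ± 0.12 in KO and 0.47 ± 0.12 in KI (edgeR adjusted p 0.00811 and 0.00621), and Fam229a, whose start lies 167 bases from Tssk3, fell by 0.63 ± 0.24 and 1.02 ± 0.24 (edgeR adjusted p 0.0567 and 0.00257). Near Tssk4, Tm9sf1 rose by 0.45 ± 0.13 in KO and 0.49 ± 0.13 in KI (edgeR adjusted p 0.0158 and 0.00795), and Mdp1 had log2 fold changes of 0.52 and 0.12 that did not pass. The neighbours of Tssk5 (Hgh1, Mroh1) and of Tsks (Ap2a1, Cpt1c) were not called, with log2 fold changes between -0.39 and 0.01 in both genotypes, and Gm20518 beside Tssk1 was too low to be tested.

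Of 8 genes whose proteins are known partners or substrates of the kinases, 3 fell and 1 rose in KO, and 3 fell in KI, against 13.5% lower and 16.4% higher of all genes in KO and 15.4% lower in KI, with median log2 fold changes of -0.17 and -0.18. Tsacc, a co-chaperone that brings HSP90 to TSSK6, fell by 1.13 ± 0.16 in KO and 1.21 ± 0.16 in KI (edgeR adjusted p 1.82e-05 and 7.15e-06), from 67.0 ± 8.05 CPM in WT to 30.6 ± 8.06 and 29.0 ± 4.12. Odf2, the substrate of TSSK4, fell by 1.28 ± 0.29 and 1.65 ± 0.29 (edgeR adjusted p 0.00205 and 0.000183). Pdpk1, the upstream kinase of TSSK3, fell by 0.30 ± 0.12 and 0.43 ± 0.12 (edgeR adjusted p 0.0687 and 0.0104). H2afx, the histone whose phosphorylated form depends on TSSK6 in spermatids, rose by 0.73 ± 0.21 in KO (edgeR adjusted p 0.0159) and had a log2 fold change of 0.42 ± 0.21 in KI that did not pass (edgeR adjusted p 0.161). The chaperones Hsp90aa1 and Hspa8, the phosphatase gene Ppp1cc and Spag16, the substrate of TSSK2, were not called by edgeR in either genotype, with log2 fold changes between -0.26 and 0.29. DESeq2 called 4 of the 8 partner genes lower and 1 higher in KO, and 3 lower in KI, so in KO it called more of them lower than edgeR did.

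Of 18 other kinase genes of the SNF1 and AMPK group, 1 was lower and 2 higher in KO, where 13.5% of all genes were lower and 16.4% higher, and 3 were lower and 1 higher in KI, against 15.4% and 16.1%, with median log2 fold changes of 0.16 and 0.06. Sik1, a salt-inducible kinase, fell by 0.78 ± 0.12 in KO and 0.80 ± 0.12 in KI (edgeR adjusted p 5.85e-05 and 3.95e-05). Nuak2 rose by 0.86 ± 0.22 and 0.97 ± 0.22 (edgeR adjusted p 0.0054 and 0.00195) and Nuak1 rose in KO by 0.82 ± 0.28 (edgeR adjusted p 0.0329), both from levels under 1 CPM in WT. Prkaa2, a catalytic subunit of AMPK, fell in KI by 0.88 ± 0.31 and Brsk2 by 0.27 ± 0.11 (edgeR adjusted p 0.0413 and 0.0739). Of 9 other kinases of germ cells, only Camk4, a calcium/calmodulin-dependent kinase of spermatids, was called. It fell from 60.4 ± 9.22 CPM in WT to 29.9 ± 5.55 in KO and 25.7 ± 6.10 in KI, by 1.01 ± 0.16 and 1.23 ± 0.16 on the log2 scale (edgeR adjusted p 7.39e-05 and 6.52e-06).

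The RS of all genotypes carried the markers of that stage. The summed level of 7 round spermatid markers, of which Actl7b was the most abundant, ran from 1340 to 1899 CPM in WT (median 1789), from 994.7 to 1921 in KO (median 1506) and from 1015 to 1579 in KI (median 1406). In KO 0 of the 7 were called by edgeR, with 1 at an unadjusted p under 0.05 and 0 called by DESeq2, and in KI 1 was lower, Actl7a, which also was among the genes most like Tssk1. Both counts lie near the shares of all genes called, 13.5% lower and 16.4% higher in KO and 15.4% and 16.1% in KI. All 10 elongating spermatid markers fell by more than 1 log2 unit in both genotypes, against 1.13% of all genes in KO and 1.43% in KI, among them Prm2 by 3.36 ± 0.22 in KO and 3.53 ± 0.22 in KI (edgeR adjusted p for any change 3.11e-10 and 1.31e-10). The study names each of these 10 genes among those changed in the same RNA-seq data. Their count was thus known beforehand and is not an independent result. Their sum, in which Prm2 was the most abundant in WT and KO and Tnp1 in KI, ran from 15740 to 21730 CPM in WT (median 20610), from 1840 to 4670 in KO (median 3844) and from 2454 to 3767 in KI (median 3431), and none of the 10 was at the floor of 3 counts throughout. According to the study, Prm2 and Tnp2 are already transcribed and stored in RS, so the sum does not measure elongating cells alone. The ratio of Tssk6 to this sum was 0.0132 ± 0.0025 in WT, 0.00954 ± 0.0027 in KO and 0.00889 ± 0.0011 in KI, and its mean was lower in KO and KI than in WT. The mean ratios of the other 6 members were higher than in WT in both genotypes, in a description without a test. For Tssk1 the ratio was 0.0122 ± 0.00097, 0.048 ± 0.0065 and 0.0502 ± 0.0056, and for Tssk3 it was 0.00827 ± 0.00088, 0.0119 ± 0.0014 and 0.0113 ± 0.00073. Since the sum itself fell, a member that fell less than the sum has a higher ratio. Tssk3, with log2 fold changes of -1.88 in KO and -2.12 in KI, fell more than 2 of the markers. These were Tnp1 (-1.78 and -1.89) and Odf1 (-1.86 and -1.95), while the medians of the list were -2.13 and -2.37. The ratios to the round spermatid sum ran differently, also without a test. Their means were lower than in WT in both genotypes for every member but Tssk5, which was higher. For Tssk1 this ratio was 0.141 in WT, 0.119 in KO and 0.122 in KI, and for Tssk3 it was 0.0948, 0.0292 and 0.0276. For Tssk5 it was 0.00837, 0.0139 and 0.0128. The part of the mixture of spermatid steps in the change of the members was not tested.

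The isolation of RS included a digestion meant to remove Leydig cells. Of all genes, 13.5% were lower and 16.4% higher in KO and 15.4% and 16.1% in KI, the shares beside which the counts of the following lists stand. Leydig cell markers were all higher, 6 of 6 in both genotypes, with sums of 9.76 to 19.7 CPM in WT (median 10.7), 29.9 to 52.0 in KO (median 39.8) and 13.4 to 66.1 in KI (median 32.0). The most abundant of them was Star in WT and Cyp17a1 in KO and KI. Of 8 spermatocyte markers, 2 fell and 3 rose in KO and 1 fell and 2 rose in KI, with Sycp2 the most abundant and mean sums of 1076 ± 92.2 CPM in WT, against 1091 ± 82.8 in KO and 1163 ± 132.1 for KI. Spermatogonium markers (led by Kit) had mean sums of 25.5 ± 2.91, 40.7 ± 11.2 and 31.4 ± 16.03 CPM, with 2 of 6 higher in KO and 1 in KI. Sertoli cell markers (led by Clu) had 16.7 ± 4.61, 14.8 ± 3.27 and 14.02 ± 3.76 CPM, with 1 of 6 lower in KO and 2 in KI. Macrophage markers (led by C1qb in WT, Adgre1 in KO and Csf1r in KI) had 7.68 ± 0.975, 7.48 ± 1.60 and 9.09 ± 1.27 CPM, with 1 of 5 lower and 1 higher in both genotypes. Myoid markers (led by Myh11 in WT and by Acta2 in KO and KI) had 3.83 ± 0.320, 3.64 ± 0.794 and 2.64 ± 0.558 CPM, with 1 of 3 lower and 2 higher in KO and 1 lower and 1 higher in KI. The part of these cells in the members' changes was not tested.

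**Figure D5:**
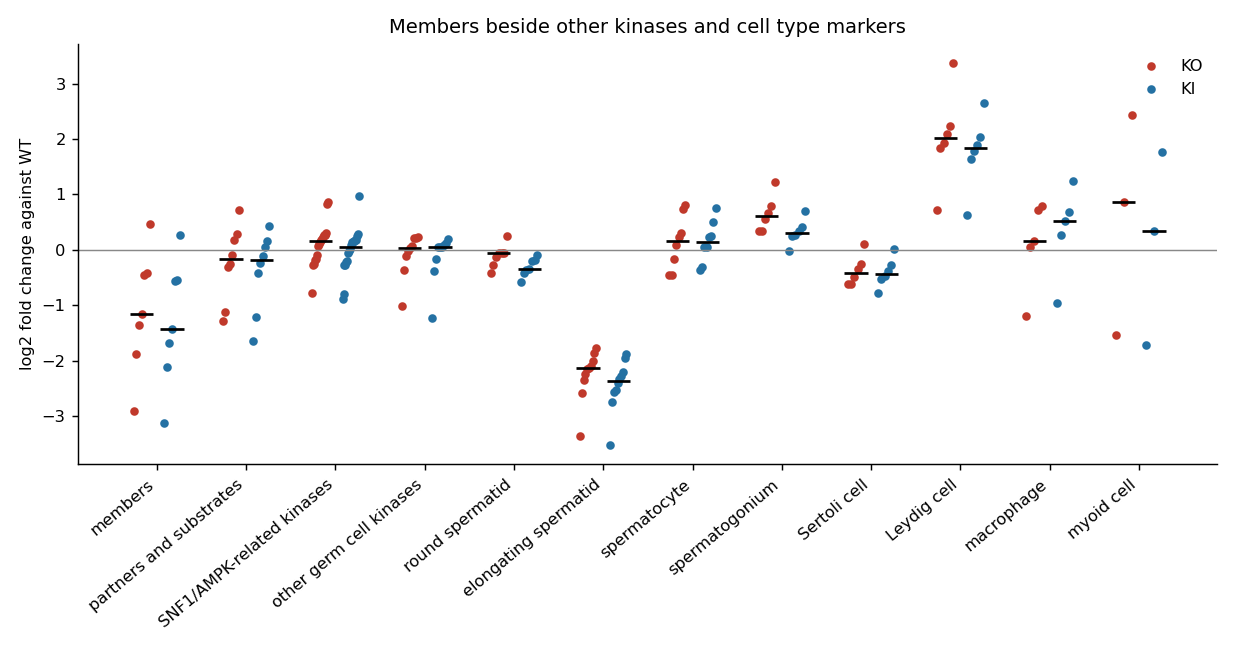
Log2 fold change against WT (y axis) of the members, of other kinases and partners and of markers of 8 testis cell types (x axis) in KO (red) and KI (blue), with each point a gene and the black line the median of the list. The 7 members have medians of -1.16 and -1.44 and spread from below -2 to above 0, the elongating spermatid markers have medians of -2.13 and -2.37, and those of the other kinase lists lie near 0.

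The genes whose log2 level was most like that of a member across the 18 libraries, by Pearson's r, differed between members. This r includes the difference between genotypes and is a description over libraries that share their preparation. For Tssk6 they were Spem1, needed for sperm head and tail shaping, and Oxct2a (r = 0.998 and 0.997), and for Tssk3 Dcun1d1 and Spata3 (r = 0.997 and 0.996), all of which had log2 fold changes between -2.75 and -1.68 in KO. Tssk2 was followed by 2610318N02Rik and Actg2 (r = 0.996 and 0.995) and Tsks by Ankef1 and Cdv3 (r = 0.996 for both). Tssk1 was followed by Actl7a, an actin-like protein of the acrosome, and Rffl (r = 0.991 for both), and Tssk4 by Cabyr, a calcium-binding protein of the sperm tail, and Sox5, a transcription factor of spermatids (r = 0.987 for both). The likeness was lowest for Tssk5, whose nearest genes were Lrrc8c and Bambi (r = 0.92 and 0.915).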

How the data were processed

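Libraries were made from total RNA without polyA selection. After trimming (cutadapt 3.4), the authors used STAR 2.7.8a for alignment to GRCm38 and featureCounts of Subread 2.0.1 to count read pairs by strand on GENCODE M18 genes, and deposited raw counts per gene for 18 libraries. The study's own test was DESeq2. The members and gene lists were chosen with earlier results of these data known. Counts were used unchanged, 0 columns were left without a library, and GENCODE M21 gave a symbol to 54079 of 54232 identifiers. In R 4.3.3, edgeR 4.0.16 (filterByExpr, TMM, quasi-likelihood fit of genotype over all libraries) tested 21058 genes against 1 log2 unit (glmTreat) and for any change (glmQLFTest), with Benjamini-Hochberg adjustment and a threshold of 0.1. Ratios of members (prior count 2) were compared by exact permutation tests. On simulated counts of 20247 genes in KO against WT, of which 200 were changed, the test past 1 log2 unit recovered 20.9% of changes of 1.5 log2 units, 84.6% of 2 and 95.6% of 3, with 0 false calls.

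A gene at or under 3 counts, 0.112 to 0.160 CPM, was taken to be at the floor, which covers counting error only since reads without molecular identifiers are not independent molecules. Alternatives were DESeq2 1.42.0, its size factors, other filters on low counts, a fit of just the genotypes in question, a block for the replicate number, a threshold of 0.05, each library left out, KO 2 and KI 4 left out together and close library pairs summed. Named genes were the members, Ddx25, their neighbours, the 2 genes most like each member, every partner gene, and the called genes of each list with the largest change, up to 3 in each direction. Alignments used Biopython 1.88 and BLAST 2.17.0+.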

Additional observations from a re-analysis of the deposited data

How the results depend on the processing

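The members that fell past 1 log2 unit, Tssk3 and Tssk6, were called in both genotypes under all 27 alternatives, with log2 fold changes of -1.96 to -1.76 and -2.98 to -2.83 in KO and -2.15 to -2.02 and -3.24 to -2.99 in KI, apart from the block. A recomputed count was taken as the same within 1.5 times of the value reported, which a change from 6 to 4 members also met. The counts of KI against KO, which were 0 under every alternative, are included. Of 289 counts recomputed, 279 met that rule, and no called value changed direction. The other 10 were counts of members called higher, which went from 0 to 1, in each case Tssk5. In KO this came with at least 10 counts in every library, with only the 2 genotypes compared, with the replicate block and, over the libraries left out, in a range of 0 to 1 (WT 3, WT 4, KO 6, KI 3, KI 4 and KI 5). In KI the range over libraries left out was 0 to 1 as well (WT 3). Leaving out a library gave 2 members past 1 log2 unit in KO and 2 to 3 in KI, where Tsks was added without KO 1 or KO 3, as it was with only the genotypes compared, and 5 to 6 lower by any amount in both. The cause of these changes was not tested. The replicate numbers did not pair the libraries, since only 7 of 18 same-numbered pairs deviated together with r over 0.1 (range -0.441 to 0.481). With the number as a block, 2 members passed 1 log2 unit in each genotype, 6 in KO and 6 in KI were lower by any amount, and 20 of 21 ratios were called in each by an exact sign-flip test. With the counts of close library pairs summed, 4 members were lower by any amount in each genotype. Depth differed between members, from at least 212 counts per library for Tssk5 to at least 1653 for Tssk1.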
